A study of Bos taurus with 12 samples.

Results

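A comparison was made between bovine aortic endothelial cells held for 24 h at a high uniform wall shear stress (High WSS, 28.4 Pa) and the same cells held for the same time at a lower uniform stress (Baseline WSS, 3.5 Pa). It uses the 6 arrays whose titles name these flows, 3 for each, of the 12 arrays in the series. Every sample was cultured cells from cow aorta at passage 15, grown for 5 days on glass coverslips in medium with 10% serum. All were then kept for 24 h in medium with 5% serum and 8% Dextran 70 before the run in a flow loop. The other 6 arrays come from cells under a positive or a negative spatial gradient of shear stress for 24 h, and they enter only where named. Total RNA was read on the Affymetrix bovine array as log2 signal per probe set, a set of short probes for one transcript. No group is stated to come from separate cultures, so p-values measure only the spread between these samples, which may be technical.

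Endothelial cells line blood vessels and sense the drag of flowing blood through their surface proteins, cytoskeleton and junctions. Steady laminar shear is known to raise the transcription factors KLF2 and KLF4, and with them genes for nitric oxide, prostacyclin and anticoagulant proteins, and to lower genes for leukocyte adhesion and for cell division. Wall shear stress far above the usual arterial range occurs at flow dividers and beside vessel branches, where it has been studied for its link to vessel remodelling.

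Of the 24016 probe sets tested, 4726 carried 1 gene symbol, for 3977 genes, and the level of a gene is that of its brightest probe set. Endothelial markers were present: PECAM1, an adhesion molecule of endothelial junctions, had a log2 signal of 12.05, 12.05 and 12.23 on High WSS arrays 1 to 3, against 11.77, 11.61 and 11.97 on Baseline WSS arrays, among array values that span 1.65 to 14.0. CDH5, the cadherin of those junctions, stood at 11.02, 10.98 and 11.12 in High WSS cells and 10.94, 11.18 and 10.80 in Baseline WSS cells. On 12 measured endothelial markers the log2 of the summed signal ran from 13.9 to 14.2 in High WSS cells and from 13.7 to 13.9 in Baseline WSS cells (exact permutation test, two-sided, p = 0.2; the smallest p that 3 against 3 arrays allow is 0.1). The 5 measured fibroblast markers summed to 13.9 to 14.0 in High WSS cells, against 13.8 to 14.2 in Baseline WSS cells (exact p = 0.8). The 2 measured smooth muscle and pericyte markers, TAGLN and SMTN, summed to 8.04 to 9.13 in High WSS cells and 8.75 to 9.38 in Baseline WSS cells (exact p = 0.2). CD14 was the 1 leukocyte marker measured, at 4.56, 6.09 and 3.98 in High WSS cells and 5.15, 7.99 and 6.09 in Baseline WSS cells. RMA gives no value of 0, so no marker could be read as absent. In such bulk RNA, fewer cells of a type and less RNA per cell cannot be told apart.

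One High WSS array was unlike the other arrays of its group on some measures. High WSS array 3 lay 0.442 and 0.441 log2 units (root mean square over probe sets) from High WSS arrays 1 and 2, themselves 0.352 apart. Baseline WSS arrays 1 and 2 also lay 0.441 apart, so such a distance within a group was not particular to High WSS array 3. The distance of High WSS array 3 to array 3 of the positive gradient, 0.197, was the smallest of the 66 pairs in the series. The 3′ minus 5′ difference of the GAPDH control probe sets, which reads how evenly both ends of a transcript were labelled, was 0.64, 0.70 and 0.089 on High WSS arrays 1 to 3, against 0.69, 0.59 and 0.60 on Baseline WSS arrays. The gradient arrays lay between 0.040 and 0.337. The same difference of the ACTB control did not set High WSS array 3 apart. It was 1.06, 1.24 and 1.14 on High WSS arrays 1 to 3, against 1.01, 1.24 and 1.69 on Baseline WSS arrays. Where leaving out High WSS array 3 ends the paired call of a gene described below, that is said beside it. With the GAPDH difference as a covariate the count of 98 called probe sets described next was 37.

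**Figure D1:**
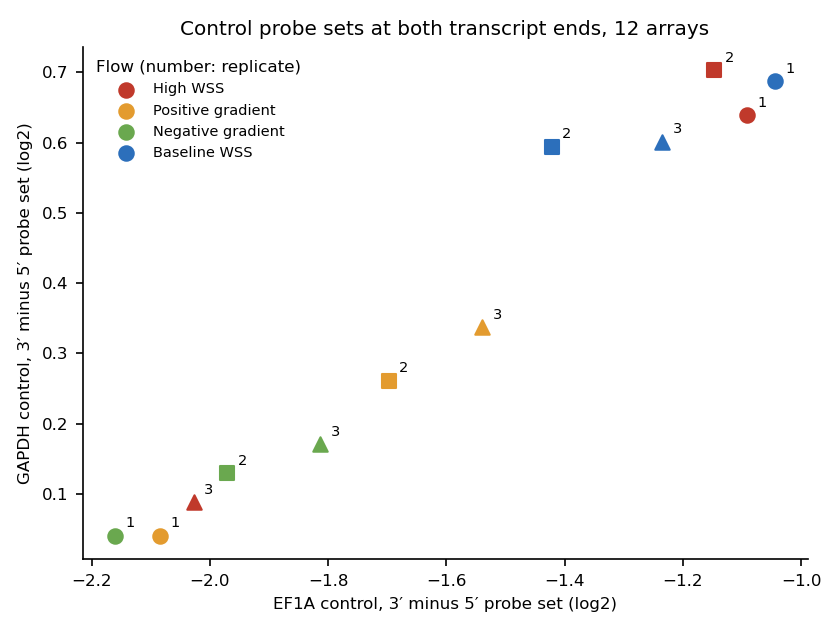
Log2 difference between the 3′ and 5′ control probe sets of EF1A (x axis) and GAPDH (y axis) on each of the 12 arrays, coloured by flow and numbered by replicate. High WSS replicates 1 and 2 lie with the 3 Baseline WSS arrays, and High WSS replicate 3 (GAPDH 0.089) lies among the gradient arrays.

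With all 12 arrays in 1 limma fit of group means, 98 probe sets were called at an adjusted p under 0.05, 27 higher (0.112%) and 71 lower (0.296%) in High WSS cells. That is 0.408% of the probe sets tested. On all 98 the 3 High WSS arrays lay entirely above or below the 3 Baseline WSS arrays, as they did on 4559 probe sets (19%, with 9.09% above and 9.89% below) whatever their p, and the smallest of the called changes was 0.64 on the log2 scale. Among named genes 10 rose (0.251%) and 37 fell (0.93%), together 1.18%. After the group means were removed, each High WSS array correlated at 0.374, 0.400 and 0.149 with the Baseline WSS array of the same number. The replicate numbers were therefore taken as pairs, by a check on these same data with a threshold of 0.1. A second fit with the replicate number as a block, called the paired fit here, called 1294 probe sets, or 5.39%, with 562 higher (2.34%) and 732 lower (3.05%), and among them were all 98. Among named genes it called 270 higher (6.79%) and 309 lower (7.77%), together 14.6%. The paired fit also blocks the gradient arrays, and High WSS array 3 correlated at −0.0785 with negative gradient array 3.

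The unpaired count moved with the arrays used. Without High WSS array 3, 17 probe sets were called (0.0708%), with 0.0251% of named genes higher and 0.101% lower, and of the 98 only 14 stayed past the threshold, although all 98 kept their sign and 80 had a smaller change. The paired fit without that array called 635 probe sets (2.64%), 96 of the 98 among them. With the 6 arrays of the comparison alone and no block, limma called 0 probe sets (2856 at an unadjusted p under 0.05). With the block over those 6 arrays it called 244 (1.02%), 62 of the 98 among them. In that last fit, which uses no gradient array, 1.56% of named genes were higher and 1.31% lower. Paired results below come from the fit that includes the gradient arrays, unless the 6 arrays alone are named. The fit of group means called 23 without High WSS array 1, and without Baseline WSS arrays 1, 2 and 3 it called 38, 46 and 37. Leaving out High WSS array 2 gave 83.

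**Figure D2:**
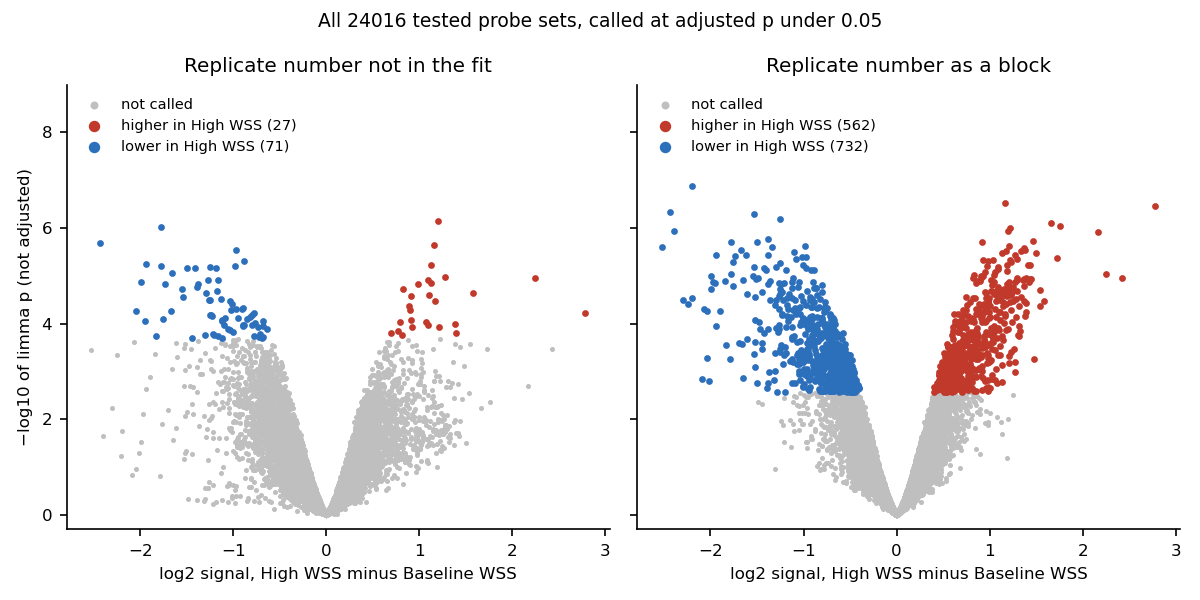
Log2 difference, High WSS minus Baseline WSS (x axis), against −log10 of the unadjusted limma p (y axis) for each of the 24016 probe sets, in the fit of group means (left) and in the paired fit (right). Red and blue points were called at an adjusted p under 0.05, 27 higher and 71 lower on the left and 562 higher and 732 lower on the right.

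The largest named rise was in PROCR, the endothelial receptor that presents protein C for activation and so limits clotting. Its log2 signal was 12.18, 11.18 and 12.16 on High WSS arrays, against 9.31, 8.48 and 9.37 on Baseline WSS arrays. All 3 High WSS arrays lay above every Baseline WSS array by well over a log2 unit, and the difference was 2.78 ± 0.48 (SE, n = 3 each), or 6.88-fold (adjusted p = 0.029). Without High WSS array 3 the difference was 2.62 with an adjusted p of 0.127, and 0.00937 in the paired fit.

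Of 23 measured immediate early genes, which switch on quickly after a stimulus, 3 rose in the fit of group means, where 0.251% of named genes rose. NR4A1, an orphan nuclear receptor, had a log2 signal of 8.08, 7.93 and 8.53 in High WSS cells, against 6.77, 6.23 and 6.80 in Baseline WSS cells, a difference of 1.58 ± 0.25 (adjusted p = 0.0179). NOCT, nocturnin, a phosphatase whose level follows the daily clock, stood at 6.71, 6.33 and 6.69 in High WSS cells, against 5.45, 5.43 and 5.02 in Baseline WSS cells (difference 1.28 ± 0.18, adjusted p = 0.0145). In both genes the groups did not overlap. SPRY2, a feedback inhibitor of receptor tyrosine kinase signalling, measured 6.56, 6.87 and 6.79 in High WSS cells and 5.49, 5.70 and 5.39 in Baseline WSS cells, which differ by 1.21 ± 0.22 (adjusted p = 0.0367). The close relative NR4A2 had a difference of 0.77 ± 0.15 and missed the threshold in the fit of group means (adjusted p = 0.0543), and rose in the paired fit (0.00668).

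The other called rises had varied roles. MALL, a membrane protein of the MAL family found in lipid rafts, measured 10.85, 10.80 and 10.66 in High WSS cells and 9.83, 8.76 and 9.54 in Baseline WSS cells (difference 1.39 ± 0.27, adjusted p = 0.0453). DCK, the kinase that salvages deoxycytidine for DNA synthesis, measured 9.93, 9.66 and 10.43 in High WSS cells, against 8.94, 8.03 and 8.88 in Baseline WSS cells (difference 1.39 ± 0.25, adjusted p = 0.0359). Neither gene had overlapping groups, Baseline WSS array 2 was the lowest for both, and High WSS array 3 was the highest for DCK. TBC1D1, a regulator of glucose transporter traffic, differed by 1.12 ± 0.17 and was the 1 named gene that rose with High WSS array 3 left out as well (adjusted p = 0.0145 and 0.0403). AMD1, which makes the aminopropyl donor for polyamines, differed by 0.91 ± 0.14 (adjusted p = 0.0196). ACLY, which makes cytosolic acetyl-CoA for lipid synthesis, measured 11.06, 11.02 and 11.07 in High WSS cells and 10.35, 10.03 and 10.27 in Baseline WSS cells (difference 0.83 ± 0.13, adjusted p = 0.0166). SPAG9, a scaffold for JNK signalling, rose by 0.90 ± 0.15 on its brightest probe set (adjusted p = 0.0269), and its second probe set was also called.

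The largest named fall was in FABP4, a fatty acid carrier that endothelial cells make in response to VEGF. Its log2 signal was 7.74, 7.48 and 6.62 on High WSS arrays, against 9.74, 9.90 and 9.51 on Baseline WSS arrays. The lowest value was that of High WSS array 3 and the groups did not overlap. The difference was −2.43 ± 0.30, so the linear signal was 5.41-fold higher in Baseline WSS cells (adjusted p = 0.012), and the call held without that array (−2.10, adjusted p = 0.0403). The related carrier FABP5 stood at 9.29, 9.47 and 8.74 in High WSS cells and 10.63, 11.27 and 10.94 in Baseline WSS cells, with a difference of −1.78 ± 0.24 (adjusted p = 0.012). A second probe set of each gene was called too, at −1.94 for FABP4 and −1.99 for FABP5.

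DHRS3, a reductase that turns retinaldehyde back to retinol, measured 6.64, 6.10 and 5.24 in High WSS cells, against 8.04, 8.27 and 7.53 in Baseline WSS cells (difference −1.95 ± 0.35, adjusted p = 0.0339). NR2F1, a nuclear receptor of the COUP family, measured 5.27, 5.83 and 5.42 in High WSS cells, against 6.86, 7.40 and 7.27 in Baseline WSS cells (difference −1.67 ± 0.28, adjusted p = 0.0269). Neither gene had overlapping groups. TTR, the carrier of retinol-binding protein and thyroxine, showed the largest named fall of the paired fit. It measured 6.41, 4.95 and 5.36 in High WSS cells and 8.64, 7.19 and 8.47 in Baseline WSS cells, a difference of −2.52 ± 0.53 that missed the threshold in the fit of group means (adjusted p = 0.0576) and passed in the paired fit (0.00271). RBP4, retinol-binding protein itself, named after its values were seen, differed by −0.77 ± 0.29, with an adjusted p of 0.237 unpaired and 0.00529 paired.

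Other leading falls had mixed roles. GAS2, a cytoskeletal protein first found in growth-arrested cells, stood at 5.14, 4.97 and 4.45 in High WSS cells and 6.99, 6.54 and 7.15 in Baseline WSS cells (difference −2.04 ± 0.35, adjusted p = 0.0269). XAF1, an interferon-induced partner of the apoptosis inhibitor XIAP, measured 3.79, 4.38 and 3.54 in High WSS cells, against 5.28, 5.32 and 5.75 in Baseline WSS cells (difference −1.55 ± 0.24, adjusted p = 0.0166). In both the groups did not overlap and the lowest value was that of High WSS array 3. XAF1 was dim in High WSS cells, where the lower quartile of probe set signals was 3.75, 3.77 and 3.90 on arrays 1 to 3. CYB561, a transmembrane electron carrier that uses ascorbate, differed by −1.49 ± 0.21 (adjusted p = 0.012) and stayed called without High WSS array 3 (0.0498). SELENOP, the secreted carrier of selenium, measured 9.92, 9.51 and 9.85 in High WSS cells and 11.52, 11.01 and 10.90 in Baseline WSS cells (difference −1.38 ± 0.21, adjusted p = 0.0145). The falls of TCP11L2, NREP and H4C2 lay between −1.29 and −1.38. H4C2 is one of a family of near-identical histone genes, so its signal may not be its own.

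**Figure D3:**
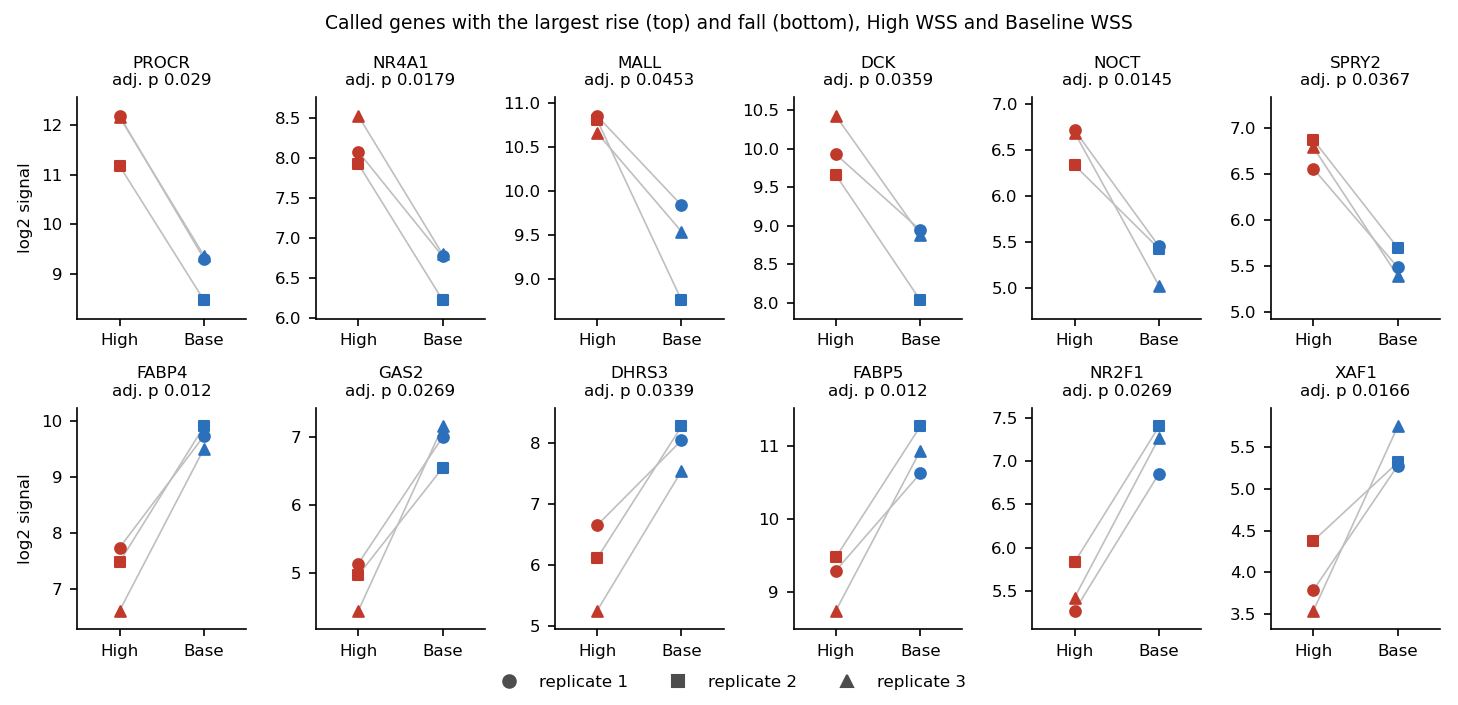
Log2 signal of the 6 called genes with the largest rise (top row) and the 6 with the largest fall (bottom row) on each array, with High WSS on the left and Baseline WSS on the right of each panel. Lines join arrays of the same replicate number, the adjusted p is that of the fit of group means, and the groups do not overlap in any panel.

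Further called falls, most of them chosen after their values were seen, were as follows. EEF2K, the kinase that slows translation elongation, fell by 1.18 on the log2 scale (SE 0.16, adjusted p = 0.012). Its second probe set, at −0.66, passed neither fit (adjusted p = 0.137 unpaired and 0.066 paired). PAIP2, which restrains poly(A)-binding protein in translation, fell by 0.89 and stayed called without High WSS array 3 (adjusted p = 0.012 and 0.0453). The receptor tyrosine kinase KIT differed by −1.17 ± 0.23 and the interleukin receptor subunit IL13RA1 by −1.12 ± 0.20 (adjusted p = 0.0473 and 0.0338). KIT was dim, with a mean log2 signal of 4.19 in High WSS cells. EFNA1, a ligand of Eph receptors, differed by −0.85 ± 0.15, and CD93, an endothelial surface glycoprotein, by −1.21 ± 0.23 (adjusted p = 0.0332 and 0.0461), both taken by the naming rule. The lysosomal enzymes ASAH1, acid ceramidase, and SGSH, a heparan sulfate sulfatase, fell by 0.95 and 0.97 (adjusted p = 0.0327 and 0.0269). The detoxifying enzymes GSTT1 and NQO2 fell by 0.78 and 0.90, and the iron reductase CYBRD1 by 1.16. A second probe set of CYBRD1, at −1.04, passed neither fit (adjusted p = 0.148 unpaired and 0.0899 paired). Other probe sets of IL13RA1 and NQO2 were lower too but missed the threshold in the fit of group means.

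The paired fit brought out a set that the fit of group means did not call. Of 41 measured genes of G2/M and mitosis, 41 had a higher mean in High WSS cells, with a median log2 difference of 1.02, against −0.014 over all 3977 named genes. None passed in the fit of group means, and 38 rose in the paired fit and 0 fell, where 6.79% of named genes rose. On 30 of the 41 the High WSS arrays lay entirely above the Baseline WSS arrays, as they did on 15.1% of named genes. Within replicate numbers 1, 2 and 3 the median differences were 0.88, 1.32 and 0.91. Leaving out High WSS array 3, 32 rose in the paired fit, where 3.82% of named genes did, and 22 rose with the block over the 6 arrays alone, where 1.56% did.

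CCNA2, CDK1, UBE2C, CCNB1, KIF20A, BUB1 and AURKA are members chosen after their values were seen. CCNA2 is the cyclin that drives S phase and entry into mitosis. Its log2 signal was 8.69, 7.55 and 7.88 on High WSS arrays 1 to 3, against 7.48, 5.64 and 6.71 on Baseline WSS arrays 1 to 3. The Baseline WSS arrays spread over nearly 2 log2 units and array 1 was the highest of each group, and the lowest High WSS value sat just above the highest Baseline WSS value. The differences within numbers were 1.21, 1.91 and 1.17, and the adjusted p was 0.245 unpaired and 0.00289 paired. The kinase it shares with cyclin B, CDK1, measured 10.93, 9.94 and 10.61 in High WSS cells and 9.72, 8.40 and 9.24 in Baseline WSS cells, with the same order of arrays (difference 1.37 ± 0.20 with the paired SE, adjusted p = 0.00366 paired and 0.192 unpaired).

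UBE2C, the ubiquitin carrier of the anaphase-promoting complex, differed by 1.43 (adjusted p = 0.00331 paired, 0.189 unpaired). ESPL1, separase, which cuts cohesin between sister chromatids, measured 8.09, 7.27 and 7.76 in High WSS cells, against 6.94, 5.51 and 6.29 in Baseline WSS cells (difference 1.46, adjusted p = 0.00271 paired and 0.131 unpaired). The 3 members with the smallest unpaired p were CENPN, a centromere protein, ECT2, the exchange factor for cytokinesis, and CKS2, a subunit of cyclin-dependent kinases. Their differences were 1.36, 0.92 and 1.09. CCNB1, the mitotic cyclin, KIF20A, a kinesin of cytokinesis, and the mitotic kinases BUB1 and AURKA also rose in the paired fit, by between 0.85 and 1.41. The 3 members that did not pass it were BUB3, SMC4 and PLK4 (paired adjusted p = 0.184, 0.0695 and 0.0505). PLK4, the kinase of centriole duplication, passed without High WSS array 3 (0.0333), and AURKA did not (0.0508).

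Of 41 measured members of the G1/S and DNA replication list, 41 had a higher mean in High WSS cells, with a median of 0.71. In the paired fit 20 rose and 0 fell, where 6.79% of named genes rose, and 8 rose without High WSS array 3, where 3.82% did. With the block over the 6 arrays alone 2 rose, and 0 passed in the fit of group means. Leaving out 1 array at a time, the paired fit called between 2 members (without Baseline WSS array 2) and 22 (without High WSS array 1), whereas for the mitosis list it called between 27 and 39. POLA2, a subunit of the polymerase that starts DNA strands, stood at 7.90, 7.50 and 7.81 in High WSS cells and 7.14, 6.48 and 6.70 in Baseline WSS cells (difference 0.96, adjusted p = 0.0043 paired and 0.086 unpaired). MCM4, of the replicative helicase, and PCNA, the sliding clamp, were chosen after their values were seen. MCM4 had overlapping groups and differed by 0.87 (adjusted p = 0.0123 paired). PCNA differed by 0.70 (0.028 paired, 0.0785 without High WSS array 3). CCND1, cyclin D1, measured 8.16, 8.02 and 10.07 in High WSS cells, where array 3 stood nearly 2 log2 units above the others, against 7.78, 7.08 and 7.81 in Baseline WSS cells, and passed neither fit (difference 1.19, adjusted p = 0.28 unpaired and 0.105 paired).

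Of 13 measured cell cycle inhibitors and p53 targets, 0 rose and 4 fell in the paired fit, where 7.77% of named genes fell. These 4 fell without High WSS array 3 as well, where 3.27% of named genes did. Beside GAS2 they were FBXO32, a muscle-type ubiquitin ligase that FOXO factors induce (−1.84, paired adjusted p = 0.00331), RPRM, reprimo, a p53 target (−1.50, 0.00271), and YPEL3 (−0.76, 0.0166). FBXO32 and RPRM are named after their values were seen. The list's median was −0.062, and GADD45B, a stress-induced growth arrest gene, at 0.48, did not pass.

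**Figure D4:**
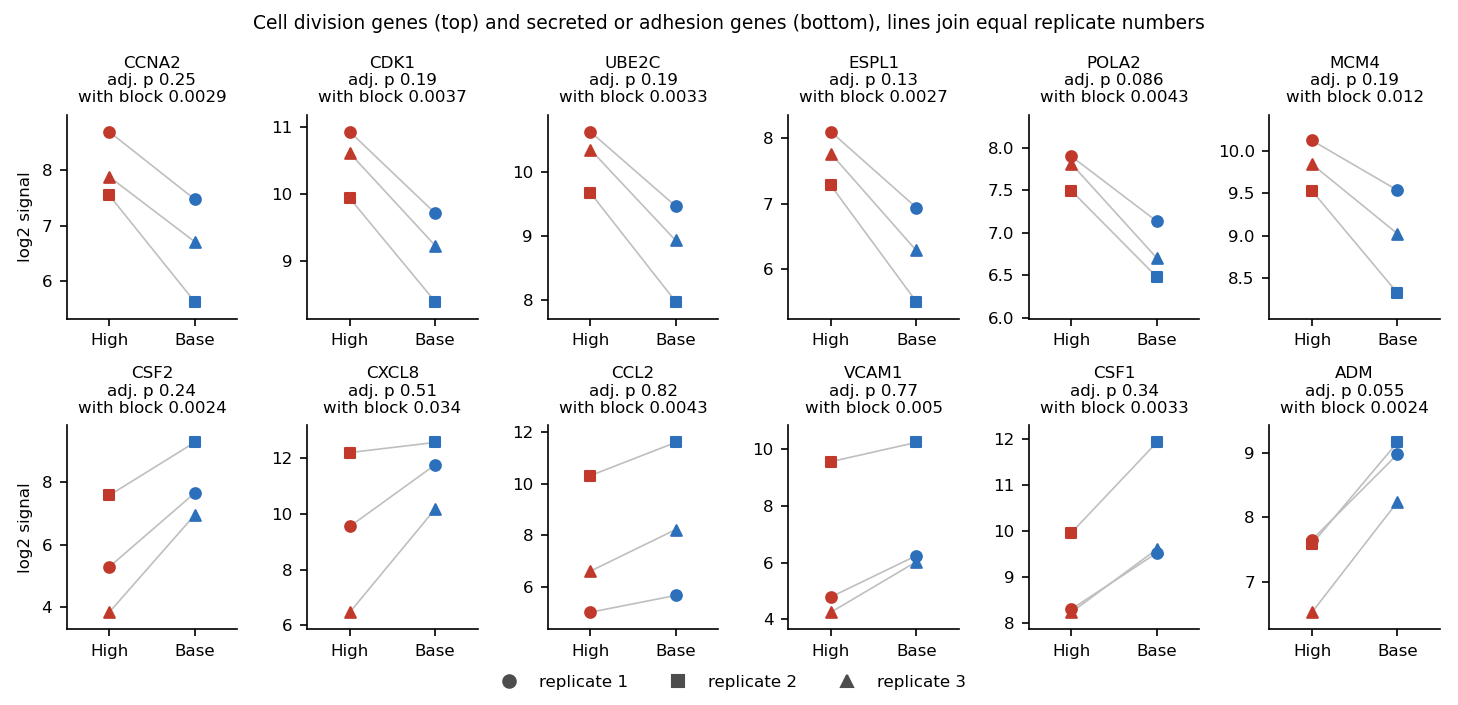
Log2 signal of 6 cell division genes (top row) and 6 genes of secreted or adhesion proteins (bottom row) on each array, with High WSS on the left and Baseline WSS on the right. Lines join arrays of the same replicate number, and the 2 adjusted p-values are those of the fit of group means and of the paired fit; each line in the top row falls to the right and each in the bottom row climbs, while levels differ between replicate numbers.

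Chemokines and adhesion molecules had mostly lower means in High WSS cells, against a large spread between replicate numbers. Of 22 measured members of the list of chemokines, adhesion molecules and NF-kB targets, 21 had a lower mean in High WSS cells, with a median of −0.78. On 1 of the 22 the High WSS arrays lay entirely below the Baseline WSS arrays, a smaller share than the 17.5% of named genes. In the fit of group means 0 passed; in the paired fit 9 fell and 0 rose, where 7.77% of named genes fell. Within replicate numbers 1, 2 and 3 the medians were −0.42, −0.66 and −0.57, and 14 of the 22 were lower in all 3. Without High WSS array 3 the paired fit called 4 members, where 3.27% of named genes fell. The mean log2 signal of the list was 6.91, 9.21 and 6.92 on High WSS arrays and 7.57, 10.1 and 7.93 on Baseline WSS arrays, with array 2 the highest of each group. Leaving Baseline WSS array 2 out of the unpaired fit turned the list's median to 0.29, and weighting the arrays by quality turned it to 0.27. In the paired fit without that array 20 of 22 were lower and 7 fell. With the block over the 6 arrays alone 2 fell, where 1.31% of named genes did. VCAM1, CCL2, CXCL2 and CCL5 were the named members whose difference turned above 0 unpaired without that array and with array weights.

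CSF2, the growth factor GM-CSF for granulocytes and macrophages, had a log2 signal of 5.28, 7.58 and 3.83 on High WSS arrays, against 7.65, 9.28 and 6.95 on Baseline WSS arrays. Its value on High WSS array 3 was below the lower quartile of that array, 3.90. The highest High WSS value, on array 2, exceeded the lowest Baseline WSS value, so the groups overlapped, while within numbers the differences were −2.37, −1.70 and −3.12 (adjusted p = 0.241 unpaired and 0.00242 paired). VCAM1, the adhesion molecule that captures monocytes, measured 4.79, 9.57 and 4.25 in High WSS cells and 6.25, 10.25 and 6.03 in Baseline WSS cells. Array 2 of each group stood above the other arrays by more than 3 log2 units, and the differences within numbers were −1.46, −0.68 and −1.78 (adjusted p = 0.774 unpaired, 0.00496 paired). CCL2, the main monocyte chemokine, was also highest on array 2 of each group, at 5.02, 10.31 and 6.61 in High WSS cells and 5.67, 11.59 and 8.22 in Baseline WSS cells (adjusted p = 0.821 unpaired, 0.0043 paired). A second CCL2 probe set did not pass the paired fit (adjusted p = 0.0741). With the block over the 6 arrays alone neither VCAM1 nor CCL2 passed (adjusted p = 0.058 for each), nor did CXCL2 and CCL5 (0.153 and 0.111).

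CXCL5, a neutrophil chemokine, differed by −2.01 (paired adjusted p = 0.0369) and TLR4, the receptor for bacterial lipopolysaccharide, by −0.78 (0.019). Neither passed without High WSS array 3 (0.154 and 0.0657). The other 4 that fell in the paired fit, named after their values were seen, were the chemokines CXCL8 at −2.09, CXCL2 at −1.31 and CCL5 at −1.38, and CSF1, a macrophage growth factor, at −1.51. The paired calls of CXCL8, CXCL2 and CCL5 were lost without High WSS array 3 (adjusted p = 0.132, 0.116 and 0.0881), and that of CSF1 was not (0.0153). CXCL8 ranged from 6.47 to 12.19 within High WSS cells alone, with its lowest value on array 3. CD14, the lipopolysaccharide co-receptor, differed by −1.53 ± 0.77 (adjusted p = 0.376 unpaired and 0.0183 paired, or 0.0765 paired without High WSS array 3). SLPI, a secreted inhibitor of leukocyte proteases, differed by −2.20 and likewise overlapped between the groups (paired adjusted p = 0.0043). Of 11 measured interferon response genes 10 were lower, with a median of −0.42. XAF1 was the 1 that fell in the fit of group means, where 0.93% of named genes fell, and 4 fell in the paired fit, where 7.77% did. Among them were the interferon-induced IFI6 (−1.45) and the immunoproteasome subunit PSMB9 (−1.01), both named after their values were seen. The paired fit without High WSS array 3 called 1 (3.27% of named genes fell there), and IFI6 and PSMB9 did not pass it (0.0705 and 0.0679).

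Of 21 measured members of the KLF2 and laminar-flow list, 12 were higher and 9 lower, with a median of 0.22. PROCR rose in the fit of group means. In the paired fit 5 rose and 2 fell, against 6.79% and 7.77% of named genes, so the 2 falls are near the share over all genes. It was 4 and 0 without High WSS array 3, against 3.82% and 3.27%. The median turned to −0.011 unpaired without Baseline WSS array 2 and to −0.020 with array weights. KLF2 itself was not analysed here. KLF4, induced by steady laminar flow, measured 12.16, 11.52 and 12.02 in High WSS cells and 11.18, 9.75 and 11.06 in Baseline WSS cells, with array 2 lowest in each group and no overlap (difference 1.23 ± 0.37, adjusted p = 0.143 unpaired and 0.00416 paired). NOS3, the endothelial nitric oxide synthase, measured 10.01, 9.37 and 10.80 in High WSS cells, against 9.50, 8.32 and 9.15 in Baseline WSS cells, and the groups overlapped (difference 1.07 ± 0.37, adjusted p = 0.201 unpaired and 0.0265 paired, and 0.0716 paired without High WSS array 3).

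ADAMTS1, a protease that cleaves versican, had 10.32, 9.78 and 8.43 in High WSS cells and 8.56, 7.43 and 7.26 in Baseline WSS cells, with an overlap at High WSS array 3 (difference 1.76, adjusted p = 0.137 unpaired and 0.00242 paired). NPPC, the C-type natriuretic peptide, differed by 1.16 (paired adjusted p = 0.0077). Its second probe set, at 0.54, did not pass the paired fit (0.107). PTGIS, prostacyclin synthase, differed by 0.46 ± 0.14 and passed neither fit (0.154 and 0.08). THBD, thrombomodulin, stood at −0.22 ± 0.16 (adjusted p = 0.546) and EDN1, the vasoconstrictor endothelin, at −0.40 ± 0.16 (0.265), and neither passed. ADM, the vasodilator adrenomedullin, measured 7.65, 7.59 and 6.53 in High WSS cells, against 8.97, 9.16 and 8.24 in Baseline WSS cells, without overlap. Its difference of −1.53 ± 0.32 just missed the threshold unpaired (adjusted p = 0.055) and passed paired (0.00242). Of the 12 vasoactive mediators measured, 1 rose and 1 fell in the paired fit, near the 6.79% and 7.77% of named genes.

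Of the 23 immediate early genes, 16 had a higher mean, with a median of 0.32. In the paired fit 8 rose, where 6.79% of named genes did, and 2 fell, near the 7.77% of named genes. The 8 became 7 without High WSS array 3, where 3.82% of named genes rose. Among those that rose were FOS, a subunit of AP-1 (1.02, paired adjusted p = 0.0312, or 0.0773 without that array), and the phosphatase DUSP1 (0.71, 0.0185), both named after their values were seen. ATF3, a stress-induced repressor, fell in that fit (−0.50, 0.0221). PTPRR, a phosphatase that restrains MAP kinases, measured 8.20, 7.44 and 7.70 in High WSS cells and 6.93, 5.29 and 6.51 in Baseline WSS cells, with no overlap (difference 1.54, paired adjusted p = 0.00515, unpaired 0.118).

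Of 22 measured genes of cholesterol synthesis and uptake, 20 had a higher mean in High WSS cells, with a median of 0.40. ACLY was the 1 called in the fit of group means, where 0.251% of named genes rose. In the paired fit 8 rose and 0 fell, where 6.79% of named genes rose, and 7 rose without High WSS array 3, where 3.82% did. INSIG1, the sterol sensor that holds SREBP in the endoplasmic reticulum, measured 8.87, 9.54 and 9.93 in High WSS cells and 8.03, 8.81 and 8.36 in Baseline WSS cells (difference 1.04, paired adjusted p = 0.00872). SQLE, HMGCS1 and DHCR7, enzymes of the sterol pathway, differed by 0.75, 0.72 and 0.71 with no overlap between groups (paired adjusted p = 0.00554, 0.0121 and 0.011). NCEH1, which frees cholesterol from its esters, differed by 1.34 (0.0043). These 5 were chosen after their values were seen. Of 22 genes of lipid handling and fatty acid carriage, 0 rose and 3 fell unpaired, namely FABP4, DHRS3 and FABP5, where 0.93% of named genes fell. With High WSS array 3 left out of the paired fit 3 rose and 5 fell, against 3.82% and 3.27% of named genes. With that array in the paired fit 5 rose and 7 fell, against 6.79% and 7.77%. The desaturase SCD, named after its values were seen, was among those that rose (0.63, 0.00801).

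Of 33 measured extracellular matrix genes 27 had a lower mean in High WSS cells, with a median of −0.42, and 13 had High WSS arrays entirely below the Baseline WSS arrays, where 17.5% of named genes did. None passed unpaired. In the paired fit 10 fell, where 7.77% of named genes did, and 1 rose. With High WSS array 3 left out, 5 fell, where 3.27% did, and 0 rose. FBN1, the microfibril protein fibrillin, measured 9.98, 10.07 and 9.45 in High WSS cells and 10.66, 10.94 and 10.79 in Baseline WSS cells (difference −0.96 ± 0.19, adjusted p = 0.0514 unpaired and 0.0161 paired). THBS2, an antiangiogenic thrombospondin, differed by −0.92 and TGFBI, an adhesive protein that TGF-beta induces, by −1.08 (paired adjusted p = 0.00529 and 0.00271). The one that rose was SPP1, osteopontin, at 1.09 with overlapping groups (0.0187), and TNC, tenascin-C, was among those that fell at −1.26 (0.018), both named after their values were seen. Neither passed without High WSS array 3 (0.0516 and 0.0566).

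Among 24 matrix proteases and their inhibitors, 4 rose and 4 fell in the paired fit, against 6.79% and 7.77% of named genes. Without High WSS array 3, 3 rose and 1 fell, against 3.82% and 3.27%, so the 1 fall is near the share over all genes. The list's median was −0.31 and turned to 0.040 unpaired without Baseline WSS array 2. TIMP1, an inhibitor of metalloproteases, measured 11.61, 11.51 and 12.41 in High WSS cells, highest on array 3, and 11.05, 10.58 and 11.41 in Baseline WSS cells (difference 0.83, paired adjusted p = 0.0149, or 0.0551 without that array). TIMP3 and PLAT, the tissue plasminogen activator, named after their values were seen, rose in the paired fit by 1.11 and 1.00, and the urokinase receptor PLAUR, also chosen so, by 1.14. CTSH, a lysosomal protease, fell there by 0.69 and the collagenase MMP1, named after its values were seen, by 1.50. MMP1 did not pass when High WSS array 3 was left out (adjusted p = 0.113). Of 15 genes of haemostasis and fibrinolysis, PROCR, PLAT and PLAUR rose and 1 fell in the paired fit, against 6.79% and 7.77% of named genes, so the 1 fall is near that share. Without High WSS array 3, 3 rose and 0 fell, against 3.82% and 3.27%.

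FLT1, a VEGF receptor that also acts as a decoy, measured 7.29, 7.40 and 7.92 in High WSS cells and 5.90, 6.08 and 6.53 in Baseline WSS cells, highest on array 3 of each group (difference 1.36 ± 0.31, adjusted p = 0.071 unpaired and 0.00331 paired). AQP1, a water channel, differed by 1.50 with overlapping groups (0.278 unpaired, 0.00271 paired). Its second probe set, at 0.90, did not pass the paired fit (0.080). The ATP receptor P2RY2 differed by 0.91 and the ADP receptor P2RY1 by −0.97, each without overlap (paired adjusted p = 0.0197 and 0.00504). P2RY2 did not pass without High WSS array 3 (0.0534), and its second probe set, at 0.69, did not pass the paired fit (0.0725). CAV1, the coat protein of caveolae, differed by −0.80 (0.0268 paired, 0.0969 without High WSS array 3). Its second probe set, at −0.33, did not pass the paired fit (0.491). The adhesion genes JUP, ITGA5 and VCL, for plakoglobin, an integrin subunit and vinculin, rose in the paired fit by 1.04, 0.65 and 0.56, whereas the LIM proteins PDLIM1 and PDLIM4 fell by 0.85 and 1.33. Of these 5, PDLIM4 alone passed without High WSS array 3 (paired adjusted p = 0.0112). Of 31 contractile and SRF target genes 3 rose and 4 fell in the paired fit, and of 29 genes of mechanosensing, ion channels and caveolae 4 rose and 2 fell. These are to be read against 6.79% and 7.77% of named genes. Without High WSS array 3 they were 0 and 2 for the contractile list and 1 and 1 for the mechanosensing list, against 3.82% and 3.27%. TAGLN, a smooth muscle and SRF target gene, stood at −0.86 ± 0.36 and passed neither fit (0.279 and 0.0558), but fell in the paired fit without High WSS array 3 (0.0184).

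Of 64 oxidative phosphorylation genes 59 had a higher mean, with a median of 0.22, and on 26 the High WSS arrays lay entirely above the Baseline WSS arrays, as they did on 15.1% of named genes. None passed unpaired. With pairing 3 rose and 1 fell, shares below the 6.79% and 7.77% of named genes, and 0 rose without High WSS array 3. Of 22 heat shock chaperones 19 were higher, with a median of 0.26, and 4 rose in the paired fit, where 6.79% of named genes did, among them DNAJB1 (0.74, paired adjusted p = 0.0187). A second DNAJB1 probe set did not pass that fit (0.0535). None of the list rose without High WSS array 3. Of 32 cytosolic ribosomal protein genes and 10 YAP/TAZ targets 0 passed either fit, and their medians were −0.055 and −0.037. The 15 apoptosis genes had a median of −0.21. In the paired fit 1 rose and 3 fell, against 6.79% and 7.77% of named genes, so the 1 rise is near the share over all genes. BAK1, a pore-forming death protein, stood at 0.67 and the mitophagy protein BNIP3 at −1.10 (paired adjusted p = 0.0199 and 0.0112). A second BNIP3 probe set, at −0.53, did not pass that fit (0.202). With High WSS array 3 left out the apoptosis list had 0 rises and 1 fall, against 3.82% and 3.27% of named genes, and BAK1 did not pass (0.0759). Of 15 Notch and arterial identity genes 3 fell and 0 rose in the paired fit, where 7.77% of named genes fell. Without High WSS array 3, 1 fell, where 3.27% did. NR2F1 was the 1 called without pairing, where 0.93% of named genes fell. The unfolded protein response, hypoxia and glycolysis, TGF-beta and BMP, junction, oxidative stress, transporter, angiogenic and endothelial transcription factor lists had medians between −0.13 and 0.085.

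**Figure D5:**
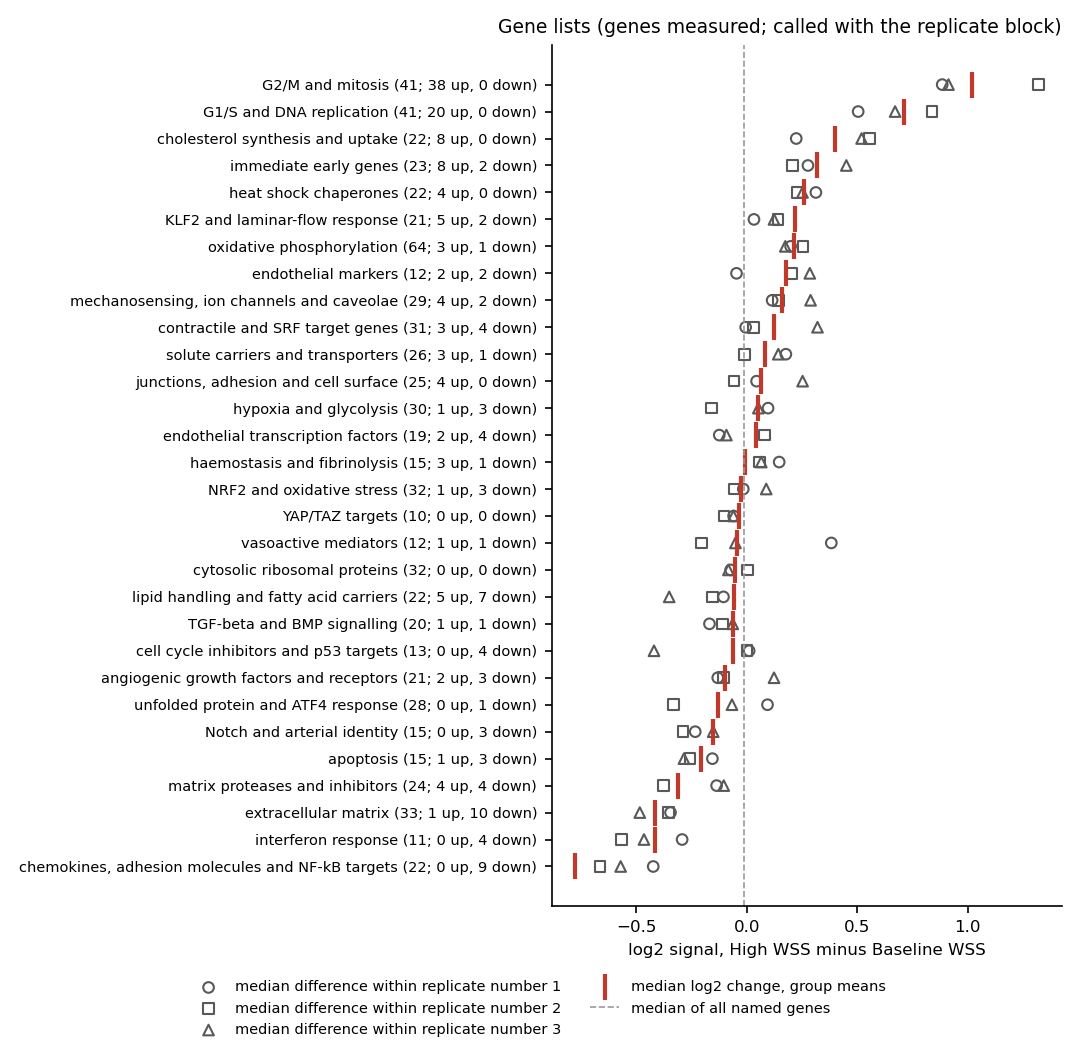
Median log2 difference, High WSS minus Baseline WSS (x axis), of each list with 10 or more measured genes (y axis, with the number measured and the numbers called in the paired fit). Red bars are medians of the difference of group means and open symbols are medians within each replicate number; mitosis and replication genes lie farthest to the right on all of them and chemokine and adhesion genes farthest to the left on the red bars.

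High WSS cells were also set directly against the cells under spatial gradients. The GAPDH control difference of High WSS arrays 1 and 2 lay above that of every gradient array, and with it as a covariate limma called 0 probe sets against the positive and 0 against the negative gradient (229 and 1419 at an unadjusted p under 0.05). Against the positive gradient limma called 0 probe sets (0%, with 1424 at an unadjusted p under 0.05), and the paired fit called 0 as well. Without High WSS array 3 it called 342 (1.42%), 117 higher (0.487%) and 225 lower (0.937%), and the paired fit without it called 1733 (7.22%), so the count turned on that array. The 3 named genes with the smallest p, TRIR, XPO4 and TRAPPC1, differed by −0.51, 0.56 and −0.51 (adjusted p = 0.79 in each). PROCR differed by 0.44 (0.863), FABP4 by −0.60 (0.79) and NR4A1 by −0.20 (0.876), none of which passed.

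Against the negative gradient 23 probe sets were called (0.0958%), 8 higher (0.0333%) and 15 lower (0.0625%) in High WSS cells, and without High WSS array 3 the count was 1767 (7.36%). Without High WSS arrays 1 and 2 it was 1 and 0, and without negative gradient arrays 1, 2 and 3 it was 6, 1 and 1. FABP4 averaged 7.28 ± 0.59 in High WSS cells and 9.25 ± 0.13 in negative gradient cells (SD, n = 3 each), a difference of −1.97 ± 0.30 (adjusted p = 0.0376). FABP5, SELENOP, CD93, YPEL3 and RCN3, a calcium-binding protein of the secretory pathway, were lower as well, by −1.46, −1.32, −1.46, −1.08 and −1.44. AMD1 was higher by 0.88 and SGPP1, the phosphatase of sphingosine phosphate, by 1.07. The adjusted p of these 7 lay between 0.0282 and 0.0495. PROCR averaged 11.84 ± 0.57 in High WSS cells and 9.71 ± 1.1 in negative gradient cells, with a difference of 2.13 ± 0.48 that did not pass (adjusted p = 0.0861). These comparisons share the High WSS arrays with that against Baseline WSS, so each is given by its own values.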

How the data were processed

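Values are log2 RMA signals per probe set on the Affymetrix bovine array, deposited by the authors as 1 matrix of 12 arrays. RMA and limma are named in the submitters' processing notes, without versions, and no genome build is named. Of 24128 probe sets, 112 controls were left out and 24016 tested with limma 3.58.1 in R 4.3.3. The fit had 4 group means over the 12 arrays, with 8 residual degrees of freedom, and adjusted p is Benjamini-Hochberg over all probe sets. Calls were made under 0.05. Errors are limma SEs with n = 3 arrays a group, and this small number of arrays sets the precision. Before use, the test recovered most of the larger changes planted in simulated data with independent noise. Recovery of the smaller planted changes was not set as a condition and is not given. The simulated data held no replicate effect and no deviant array, so they do not cover these features of the arrays used here.

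Gene names came from the platform annotation of the deposited series matrix, with symbols looked up in RefSeq through Entrez numbers. They cover 4726 probe sets with 1 symbol, while 27 with several were left unnamed and 11 Entrez numbers had no match and kept the annotation's name. The brightest probe set stood for a gene. The 33 gene lists hold 1272 genes, 664 of them measured, and a gene can be in several.

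The members and lists were chosen with earlier results of these data known. Genes were named by 5 rules: the 12 largest non-overlapping called rises and the 12 falls, filled up by p; from each list up to 4 called members, or otherwise the 3 with the smallest p; a panel of flow-responsive genes; the 6 largest rises and the 6 falls of the paired fit; and up to 6 per direction against each gradient. Others are said to be chosen after their values were seen. A few members are also named only to account for those that missed a call, and some genes that the rules take are not reported here.

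Groups and replicate numbers came from the sample titles. Pairing was decided by whether each pair of same-numbered arrays had deviations from group means that correlated above 0.1, which held for High WSS with Baseline WSS and with the positive gradient (0.299, 0.553 and 0.330). It did not hold with the negative gradient. The labels do not say what a number stands for. The alternatives were the block, the 6 arrays alone, each array left out, a trended robust prior, array weights, a dim-signal filter, median centring, quantile normalization, the probe sets of the series matrix alone, GAPDH control ends as a covariate and the mean of a gene's probe sets. Leaving out arrays other than High WSS array 3 in the paired fit was added after seeing the data.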

Additional observations from a re-analysis of the deposited data

How the results depend on the processing

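With the replicate block, which the pairing check allowed for High WSS and Baseline WSS, the count of 98 called probe sets became 1294 over 12 arrays and 244 over the 6 arrays alone, and the 6 arrays without it gave 0. Leaving out 1 array gave 17 to 83 without the block and 581 to 1097 with it (635 without High WSS array 3, 811 without High WSS array 2, and 637, 581 and 635 without Baseline WSS arrays 1, 2 and 3). A trended robust prior gave 201, the series matrix probe sets alone (7141 tested) 189 and the GAPDH covariate 37, while the other alternatives gave 103 to 144. Against the positive gradient the 0 calls became 1 with array weights, 0 to 342 with 1 array left out and 0 to 1733 with the block as well. Against the negative gradient the 23 calls became 0 over the 6 arrays alone, 0 to 1767 with 1 array left out, 117 with the trended prior, 1704 with array weights, 10 after centring, 15 after quantile normalization, 57 in the series matrix and 0 with the GAPDH covariate. The numbers did not pair those arrays (r = 0.329, 0.412 and −0.0785), and High WSS array 3 correlated best with another number. The block gave 1030 there, 223 over 6 arrays and 23 to 4173 with 1 array left out (211 and 40 without High WSS arrays 1 and 2, 487 without negative gradient array 1). Of 3579 values, for 161 gene results under the settings that apply, 2740 kept direction and side of the threshold, 271 lost the call, 554 gained it and 14 changed sign, in 8 genes. With the block over 12 arrays 93 of the 161 gained a call and 0 lost it. The block over the 6 arrays of a comparison alone gave 32 gained and 9 lost. Without Baseline WSS array 2 the log2 differences were 0.063 for VCAM1, 0.37 for CCL2, 0.16 for CXCL2 and 0.62 for CCL5, against −2.99, −2.68, −3.30 and −2.88 without High WSS array 2, the lowest with 1 array left out. With array weights they were 0.74, 0.56, 1.08 and 0.58. The mean of all probe sets gave 0.020 for RPL9 and 0.020 for ERG. THY1 was 0.051 with the block without High WSS array 3. CDH5 was −0.023 without Baseline WSS array 3 and 0.17 without Baseline WSS array 2, −0.034 with the block without High WSS array 3 and −0.0064 with the block without Baseline WSS array 3. The cause of these changes was not tested.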
